A study of Danio rerio with 2 samples.

Results

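Annexins are cytosolic proteins that bind acidic phospholipids when calcium rises and that take part in membrane repair, vesicle traffic and the anchoring of membranes to actin. Several are abundant in skin, and annexin A1 is a component of the cornified envelope of mammalian keratinocytes. Many act with small calcium-binding partners: in mammals annexin A2 binds S100A10, annexin A1 binds S100A11 and annexin A11 binds ALG-2, the product of *pdcd6*. The skin of the zebrafish embryo consists of an outer periderm and an inner basal epidermis.

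The 10 annexin genes followed here were *anxa1a*, *anxa1b*, *anxa1c*, *anxa1d*, *anxa2a*, *anxa2b*, *anxa5b*, *anxa6*, *anxa11a* and *anxa11b*. They were taken by symbol from a list drawn up with earlier results of these data known, out of 25432 genes in the files, 16 of which have an annexin symbol. In the RefSeq annotation of the GRCz12tu assembly, *anxa1d*, *anxa1c* and *anxa1b* are direct neighbours on the chromosome, while *anxa1a* lies beside *mfsd3* and *kifl*.

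The study asked how N-glycan branching by *mgat4b* acts on pigment cell development. Zebrafish embryos received at the single-cell stage a plasmid that drives both Cas9 and green fluorescent protein (GFP) from the *mitfa* promoter, with guides against *mgat4b* in the mutant group and with nontargeting guides in the control group. The mutation is thus somatic, and its share of cells was not measured here. GFP-positive cells were sorted at 36 hours post fertilisation, and 1 library per group was made by droplet RNA sequencing with unique molecular identifiers (UMIs). The sample labels used here name no further treatment. The methods of the study describe phenylthiourea in embryo water, to keep melanin from hiding GFP. They do not say whether the sorted embryos received it.

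The control library held 1771 cells that passed the filter of the study, with 17088324 UMIs and a median of 4919 per cell, and the mutant library held 3860 cells, with 30447310 UMIs and a median of 6480. Only 2 cell barcodes occurred in both libraries. *mgat4b* itself stood at 80.8 CPM (the UMIs counted for a gene per 1000000 UMIs of the library or class) for the control and 64.3 CPM for the mutant library, a ratio of 0.796 (95% interval 0.743 to 0.854). Without 1 control cell that held 85 of its UMIs the ratio was 0.847 (0.789 to 0.909). The cells are labelled melanocytes, but *dct*, an enzyme of melanin synthesis, had a UMI in 1.13% of control and 0.881% of mutant cells, and 0 of 26 clusters took the name melanophore. The pigment gene *pmela* had a UMI in 3.16% and 4.51% of cells, *sox10* of the neural crest in 5.19% and 10.5%, and *mitfa* itself in 6.32% and 14.8%. The clusters, built without any annexin gene, gave 16 classes named from their markers, written with "-like" because no label of the study was used. By class, *mgat4b* was not lower throughout the mutant library. It stood at 88.6 CPM for the control and 127 CPM for the mutant in xanthophore-like cells. In iridophore-like cells it had 2.84 and 23.4 CPM, the control value lying below the 8.52 CPM that 3 counts would give. In neural crest-like cells it had 119 and 75.8 CPM. The part of the class mix in the ratio over all cells was not tested. Each UMI is a tag of the 3′ end of a transcript, so levels are not scaled by gene length. Clusters without a name held 45.5% of control and 12.1% of mutant cells. The 2 of low depth held 599 control and 107 mutant cells. The hatching enzyme gene *he1.1* was among the leading genes of both, and *he1.2* among those of the larger one. With 1 library per group nothing was tested, and the 95% intervals measure counting error alone and say nothing of how animals or libraries vary.

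The transcripts of the 10 annexin genes lay mostly in the skin classes of these sorted cells. The 6 other annexin genes are not in the shares below. Of the 5 of them with at least 200 UMIs, 1 was highest in periderm-like and 0 in basal epidermis-like cells. Periderm-like and basal epidermis-like cells together held 87.3% (86.9 to 87.7, exact binomial) of the UMIs of the 10 genes in the control library and 83.1% (82.7 to 83.5) in the mutant library. These classes made up 6.78% and 9.37% of control cells, and 7.98% and 11.7% of mutant cells. With both libraries summed, 6 of the 9 genes with at least 50 UMIs had over 50 percent of their UMIs in both skin classes together. Of all 18119 genes with that many UMIs, 7.56% did. In periderm-like cells alone 3 of the 9 had over 90 percent, beside 0.866% of all genes. The 6 were *anxa1a*, *anxa1b*, *anxa1c*, *anxa1d*, *anxa2a* and *anxa5b*, and the 3 were *anxa1b*, *anxa1c* and *anxa1d*, the neighbours. In the mutant library alone *anxa5b* was under 50 percent, with 534 of its 1239 UMIs in basal epidermis-like and 59 in periderm-like cells.

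**Figure D1:**
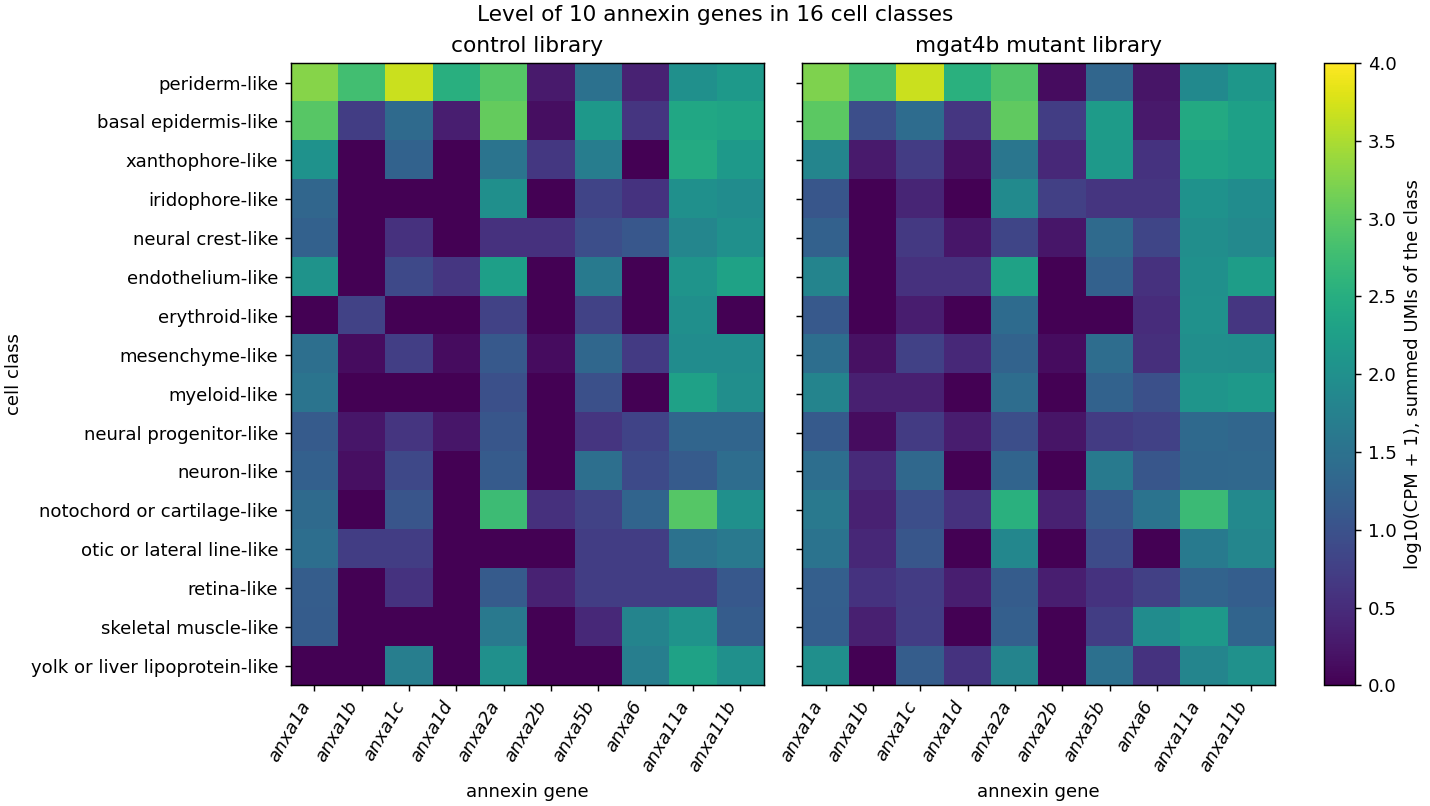
Colour shows log10(CPM + 1) of each annexin gene (columns) in the summed UMIs of each of 16 cell classes (rows), control library on the left and mgat4b mutant library on the right. The brightest cell in both panels is *anxa1c* in periderm-like cells, at 4835 CPM for the control and 4752 CPM for the mutant.

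*anxa1c* (ENSDARG00000104359), a zebrafish relative of annexin A1, was the annexin with most UMIs. Its level in periderm-like cells was 4835 CPM (10520 UMIs) for the control and 4752 CPM (14013 UMIs) for the mutant, against 22.9 and 24.9 CPM in basal epidermis-like cells. In both libraries 98.1% and 98.0% of its UMIs lay in periderm-like cells. With every cell thinned to 836 UMIs, 86.3% of 117 control and 86.2% of 305 mutant periderm-like cells kept an *anxa1c* UMI, compared with 1.59% of the neuron-like cells of the control and 1.36% of those of the mutant, a class that should lack the gene. The median depths before thinning were 19276 and 8935 UMIs in periderm-like cells and 10872 and 5527 in neuron-like cells. Over both libraries the interval in basal epidermis-like cells (20.3 to 28.3 CPM) overlapped that of the yolk or liver lipoprotein-like class (5.95 to 35.3 CPM, from 6 UMIs). In this pooled count the basal interval lay above those of the other named classes except periderm-like cells. By library, neuron-like cells had 6.42 CPM in the control and 21.7 CPM (32 UMIs) in the mutant, the latter close to the basal level.

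*anxa1b* (ENSDARG00000100095) and *anxa1d* (ENSDARG00000098481) had the same place at lower levels. *anxa1b* stood at 614 CPM in control and 609 CPM in mutant periderm-like cells, and at 4.34 and 8.21 CPM in basal epidermis-like cells. *anxa1d* stood at 333 and 342 CPM in periderm-like cells, and at 1.18 and 3.23 CPM in basal epidermis-like cells. The shares of their UMIs in periderm-like cells were 97.8% and 97.0% for *anxa1b*, and 98.4% and 96.4% for *anxa1d*. Of the thinned periderm-like cells with an *anxa1b* UMI, 42 of 42 control and 98 of 105 mutant cells had an *anxa1c* UMI too, beside 86.3% and 86.2% of all thinned periderm-like cells. Across 20 points (the 10 classes in which each library had 20 cells or more, points of 1 library sharing its depth and free RNA) the Pearson correlation of log2(CPM + 1) was 0.96 for *anxa1b* with *anxa1c*, 0.94 for *anxa1b* with *anxa1d* and 0.91 for *anxa1c* with *anxa1d*.

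The 2 periderm-like clusters differed in level. The larger one, led by *agr1*, *icn2* and *evpla*, had *anxa1c* at 5394 CPM for the control and 5256 CPM for the mutant. The smaller one, led by *cldnh* and *krt92* and holding 26 control and 68 mutant cells, had 1165 and 1955 CPM. The smaller cluster was the lower one in both libraries for *anxa1a*, *anxa1b*, *anxa1d* and *anxa2a* as well. In the smaller cluster 11.8% of the *anxa1c* UMIs came from 1 cell.

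*anxa1a* (ENSDARG00000026726), the remaining annexin A1 relative, was present in both skin layers. It stood at 1877 CPM in control and 1702 CPM in mutant periderm-like cells, and at 927 and 992 CPM in basal epidermis-like cells. Over both libraries the periderm-like level was 1.84 times the basal one. The basal level was 10.5 times that of the next named class, yolk or liver lipoprotein-like cells (0 and 97.1 CPM, from 34 UMIs). Clusters without a name were not ranked. Its UMIs were split as 57.3% periderm-like and 33.0% basal epidermis-like in the control, and as 54.8% and 36.9% in the mutant.

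*anxa2a* (ENSDARG00000003216), whose mammalian counterpart joins membranes to actin as a complex with S100A10, had the opposite order. Its level was 1126 CPM in control and 1054 CPM in mutant basal epidermis-like cells, against 869 and 826 CPM in periderm-like cells. The counting intervals of the classes did not overlap over both libraries (1058 to 1111 CPM in basal, 819 to 870 CPM in periderm). The next named classes were notochord or cartilage-like cells at 547 and 345 CPM and endothelium-like cells at 180 and 197 CPM. The partner gene *s100a10b* had the same leading classes, with 3664 and 4520 CPM in basal epidermis-like and 2362 and 2320 CPM in periderm-like cells.

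The basal epidermis-like class was also made of unlike clusters. In the larger one, led by the collagen genes *col5a3b* and *col7a1*, *anxa2a* stood at 1347 CPM for the control and 1395 CPM for the mutant, and *anxa1a* at 1107 and 1323 CPM. In the smaller one, led by *frem2a* and holding 46 control and 161 mutant cells, *anxa2a* stood at 41.97 and 218 CPM and *anxa1a* at 44.3 and 181 CPM. Of the *anxa2a* UMIs of the smaller cluster 21.8% were in 1 cell, and the ratio of mutant over control was 5.20 (3.21 to 8.95) with that cell and 4.27 without it.

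**Figure D2:**
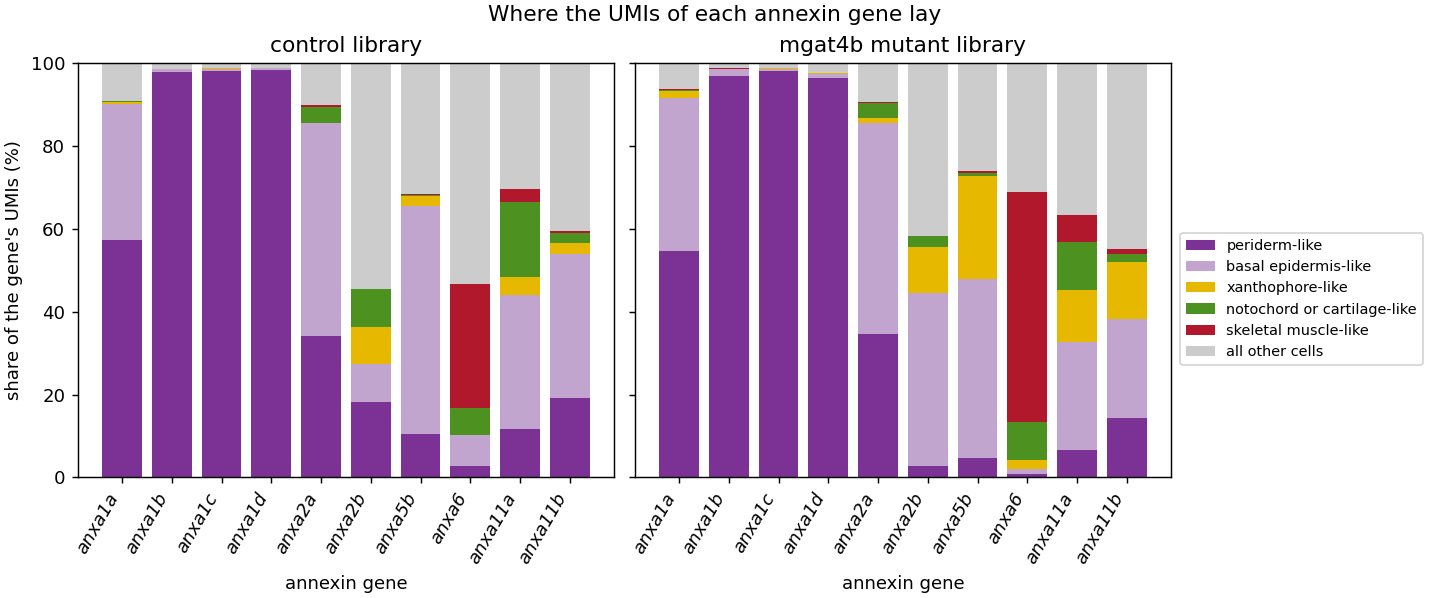
Bars give the percent of each annexin gene's UMIs that lay in periderm-like, basal epidermis-like, xanthophore-like, notochord or cartilage-like and skeletal muscle-like cells and in all other cells, per library. *anxa1b*, *anxa1c* and *anxa1d* are almost wholly periderm-like. Among single named classes, skeletal muscle-like cells hold the largest part of *anxa6* (29.9% in the control, 55.4% in the mutant).

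Likeness to the 3 annexins with most UMIs was measured by Pearson correlation of log2(CPM + 1) over the same 20 points. The closest genes for *anxa1c* were *agr1* (0.977), *evplb*, an envoplakin of the cornified envelope (0.972), and *marveld2b*, a tight junction gene (0.971). For *anxa1a* they were *serpinb14* (0.972), *grhl3*, a transcription factor of the epidermal barrier (0.961), and *s100a10b* (0.958). For *anxa2a* they were *fam169aa* (0.919), *klf2b* (0.910) and again *s100a10b* (0.909). *agr1*, *evplb* and *grhl3* were among the markers used to name the periderm-like class, one of the classes that the correlation runs over.

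The study used *anxa1a* and *anxa2a* as signs of iridophore fate, iridophores being the reflective pigment cells. It did so for its own clusters of cells with mixed pigment markers, named MX+ and MI+. Those clusters were not rebuilt here, so the values below are of other cells and do not check that use. The iridophore-like class, 16 control and 52 mutant cells led by *defbl1*, *gpnmb* and *pnp4a*, held few UMIs of *anxa1a* and *anxa2a*. *anxa1a* stood at 19.9 CPM (7.996 to 41.0) in control and 10.9 CPM (4.38 to 22.5) in mutant iridophore-like cells, from 7 UMIs in each library. Their intervals overlapped those of neuron-like cells, which had 15.6 CPM (10.8 to 21.8) and 26.4 CPM (18.8 to 36.1), and periderm-like cells had 1877 and 1702 CPM. Among thinned iridophore-like cells 0 of 16 for the control and 1 of 52 for the mutant (1.92%) kept an *anxa1a* UMI. Per 1000 UMIs of skin keratins, a measure of how skin RNA is spread over the classes, *anxa1a* gave 16.7 and 12.5 UMIs in iridophore-like cells, beside 13.1 and 19.4 in the basal epidermis, 12.7 and 22.7 among neurons and 8.33 and 7.57 in the periderm, as these classes were named.

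*anxa2a* was higher than *anxa1a* in iridophore-like cells. It stood at 96.6 CPM (66.9 to 135) in the control, from 34 UMIs, and 81.0 CPM (60.5 to 106) in the mutant, from 52 UMIs, while neuron-like cells had 12.8 and 18.3 CPM. Per 1000 keratin UMIs it gave 81.3 and 92.9 in iridophore-like cells, compared with 15.95 and 20.7 in basal epidermis-like and 10.5 and 15.7 in neuron-like cells. Keratins made up 0.119% and 0.0872% of the UMIs of iridophore-like cells. Among thinned cells 0 of 16 control and 2 of 52 mutant iridophore-like cells (3.85%) kept an *anxa2a* UMI, the former allowing up to 18.8% of cells with a UMI at this depth (3 counts of the total). The iridophore-like level was the fifth among the named classes, and its interval overlapped that of the class below it.

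The annexin that stood highest in iridophore-like cells was *anxa4*, which is outside the set of 10 and whose mammalian counterpart is known from secretory epithelia. It stood at 318 CPM (262 to 383) in control and 665 CPM (603 to 731) in mutant iridophore-like cells, against 22.5 and 64.3 CPM in neuron-like cells. Thinned cells with an *anxa4* UMI were 18.8% of 16 control and 40.4% of 52 mutant iridophore-like cells, and 0.794% and 1.81% of neuron-like cells. Myeloid-like cells came next at 499 and 337 CPM, so the order of these classes was not the same in the libraries. The ratio of mutant over control in iridophore-like cells was 2.09 (1.69 to 2.60), and 1.89 without the cell with most *anxa4* UMIs. Of the 3 members with at least 50 UMIs there, *anxa2a*, *anxa11a* and *anxa11b*, 0 passed the size rule (50 or more UMIs over both libraries, a difference of 2-fold or more and an interval that leaves out 1), which 4.40% of genes passed upward and 3.21% downward in iridophore-like cells. *anxa4*, with 539 UMIs there, passed it upward, but without its top cell it was short of the rule.

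**Figure D3:**
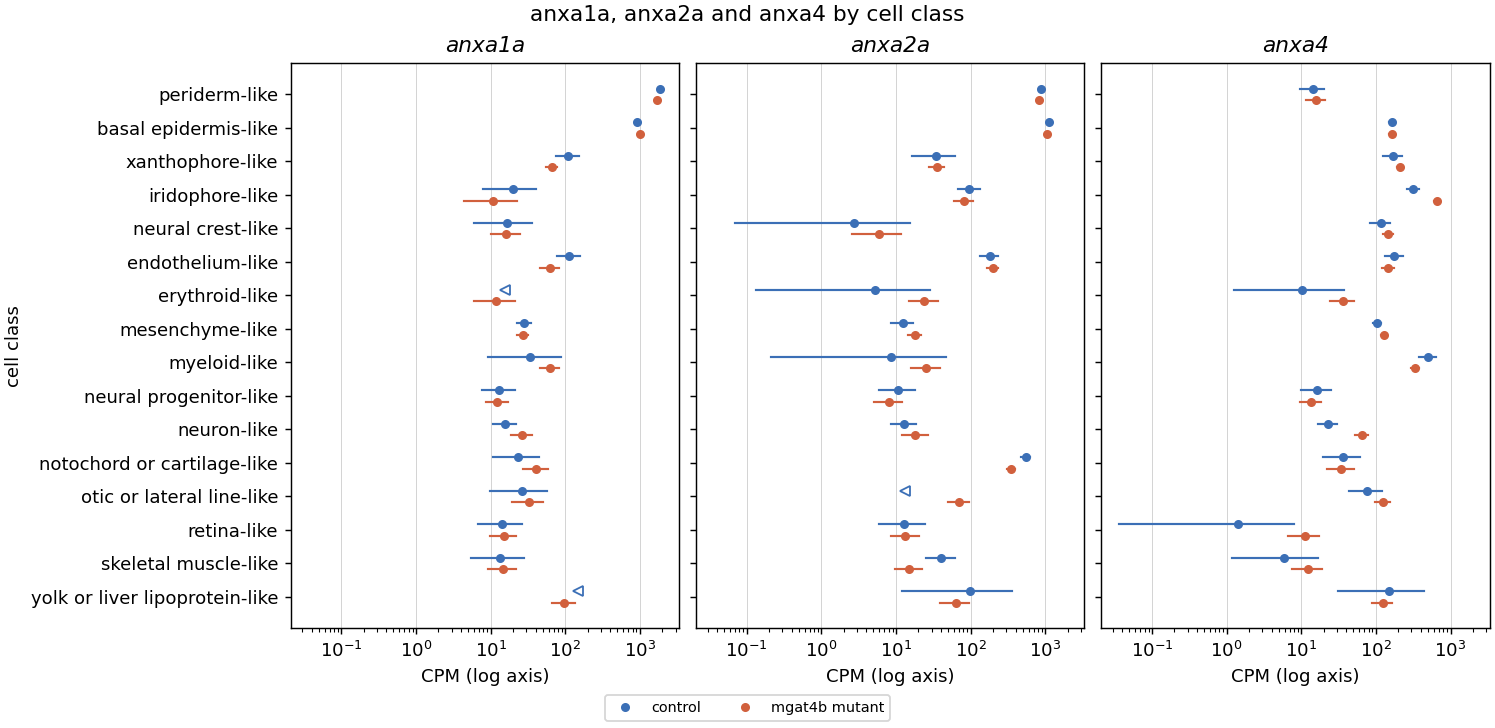
Points give the CPM (log axis) of *anxa1a*, *anxa2a* and *anxa4* in each of 16 cell classes, control in blue and mgat4b mutant in orange, with lines for the exact Poisson 95% intervals and open triangles for the level that 3 counts would give where a library had none. In iridophore-like cells *anxa1a* lies far below both skin classes at 19.9 and 10.9 CPM, while *anxa4* reaches 318 and 665 CPM.

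*anxa5b* (ENSDARG00000016470), a relative of annexin A5, the protein used to label phosphatidylserine on dying cells, was shared between skin and xanthophore-like cells. It stood at 135 CPM in control and 157 CPM in mutant basal epidermis-like cells, and at 29.9 and 20.01 CPM in periderm-like cells. In xanthophore-like cells, the yellow pigment lineage, it stood at 47.7 CPM from 14 UMIs in the 29 control cells and at 144 CPM from 307 UMIs in the 326 mutant cells. The ratio there was 3.02 (1.77 to 5.59), and 2.95 (1.73 to 5.46) without the cell with most of its UMIs. Thinned xanthophore-like cells with an *anxa5b* UMI were 7.41% of 27 for the control and 14.6% of 309 for the mutant, next to 4.76% and 1.81% of neuron-like cells.

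*anxa5b* was the only one of 5 members with enough UMIs to pass the size rule in xanthophore-like cells, where 4.38% of all genes passed upward and 5.14% downward. Both xanthophore-like clusters had the higher value in the mutant library. The cluster led by *uraha* and *gch2* had 93.1 and 192 CPM, a ratio of 2.07 (1.02 to 4.87), and the cluster led by *aox5* and *xdh* had 28.9 and 112 CPM, a ratio of 3.88 (1.74 to 10.8), from 6 control UMIs. The keratin share of xanthophore-like UMIs was 0.408% for the control and 0.161% for the mutant, and *anxa1a* had the lower value in the mutant, 66.2 against 109 CPM. The part of the small control class in these values was not tested.

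*anxa11a* (ENSDARG00000077383) and *anxa11b* (ENSDARG00000002632) are relatives of annexin A11, which tethers vesicles and RNA granules to membranes in mammals. They were spread over most classes. *anxa11a* was highest in notochord or cartilage-like cells, a class of 24 control and 61 mutant cells led by *col9a1b*, *epyc* and *matn3a*, at 890 CPM for the control and 537 CPM for the mutant. The level in basal epidermis-like cells was 241 and 264 CPM, in xanthophore-like cells 283 and 207 CPM, in mesenchyme-like cells 86.8 and 92.3 CPM and in neuron-like cells 13.3 and 20.3 CPM. After thinning, 12 of 24 control and 17 of 60 mutant notochord or cartilage-like cells (28.3% of the latter) kept an *anxa11a* UMI, against 0 of 126 and 0.905% of 221 neuron-like cells, the former allowing up to 2.38% of cells with a UMI at this depth.

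The mutant over control ratio of *anxa11a* in notochord or cartilage-like cells was 0.604 (0.521 to 0.6999), and 0.659 (0.566 to 0.767) without its top cell. *anxa2a* had a ratio of 0.631 (0.524 to 0.761) in the same cells, but 0.865 (0.704 to 1.07) without 1 cell that held 13.8% of its UMIs. Of the 3 members with enough UMIs there, 0 passed the size rule, which 7.25% of genes passed upward and 4.2% downward. *pdcd6*, the partner of annexin A11 in mammals, was likewise highest in this class, at 1400 CPM for the control and 472 CPM for the mutant. Its ratio was 0.337 (0.294 to 0.386), and 0.385 (0.333 to 0.444) without 1 control cell that held 95 of its UMIs. With or without that cell *pdcd6* was past the size rule downward.

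*anxa11b* was highest in several classes with similar levels. Its level was 217 and 187 CPM in basal epidermis-like, 200 and 170 CPM in endothelium-like, 147 and 174 CPM in xanthophore-like and 140 and 130 CPM in periderm-like cells. Over both libraries the interval of endothelium-like cells (154 to 206 CPM) overlapped those of basal epidermis-like (189 to 212 CPM) and xanthophore-like cells (154 to 188 CPM). The basal epidermis-like interval lay above the xanthophore-like one, and that of periderm-like cells (124 to 145 CPM) lay below it. Myeloid-like cells (116 to 164 CPM) overlapped both xanthophore-like and periderm-like cells. It was low in neural classes, at 26.2 and 21.7 CPM in neuron-like cells, and the correlation with *anxa11a* over the 20 points was 0.81.

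*anxa6* (ENSDARG00000013335), whose mammalian counterpart is a large annexin of muscle and takes part in repair of the muscle membrane, was the only member that peaked in skeletal muscle-like cells. It stood at 62.0 CPM (32 UMIs) in control and 87.5 CPM (144 UMIs) in mutant skeletal muscle-like cells. *anxa11a* was higher there, at 114 and 139 CPM. For *anxa6*, notochord or cartilage-like cells followed at 18.2 and 32.6 CPM, and basal epidermis-like cells had 3.16 and 0.880 CPM. Its ratio in skeletal muscle-like cells was 1.41 (0.957 to 2.14), and of the 2 members with enough UMIs there, *anxa6* and *anxa11a*, 0 passed the size rule, which 7.63% of genes passed upward and 5.80% downward. The correlation of *anxa6* was negative with *anxa1a* (-0.57), *anxa1c* (-0.36), *anxa5b* (-0.46) and *anxa11b* (-0.43) over the 20 points, which leave out skeletal muscle-like cells because the control library had 17 of them. *dysf*, the gene of the repair protein dysferlin, stood at 138 and 270 CPM in the same muscle-like cells and at 308 and 487 CPM in endothelium-like cells.

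*anxa2b* (ENSDARG00000053625) was close to undetected, with 11 UMIs for the control and 36 for the mutant library, 16 of them over both libraries in basal epidermis-like cells. Its place among the classes could not be resolved at this depth.

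**Figure D4:**
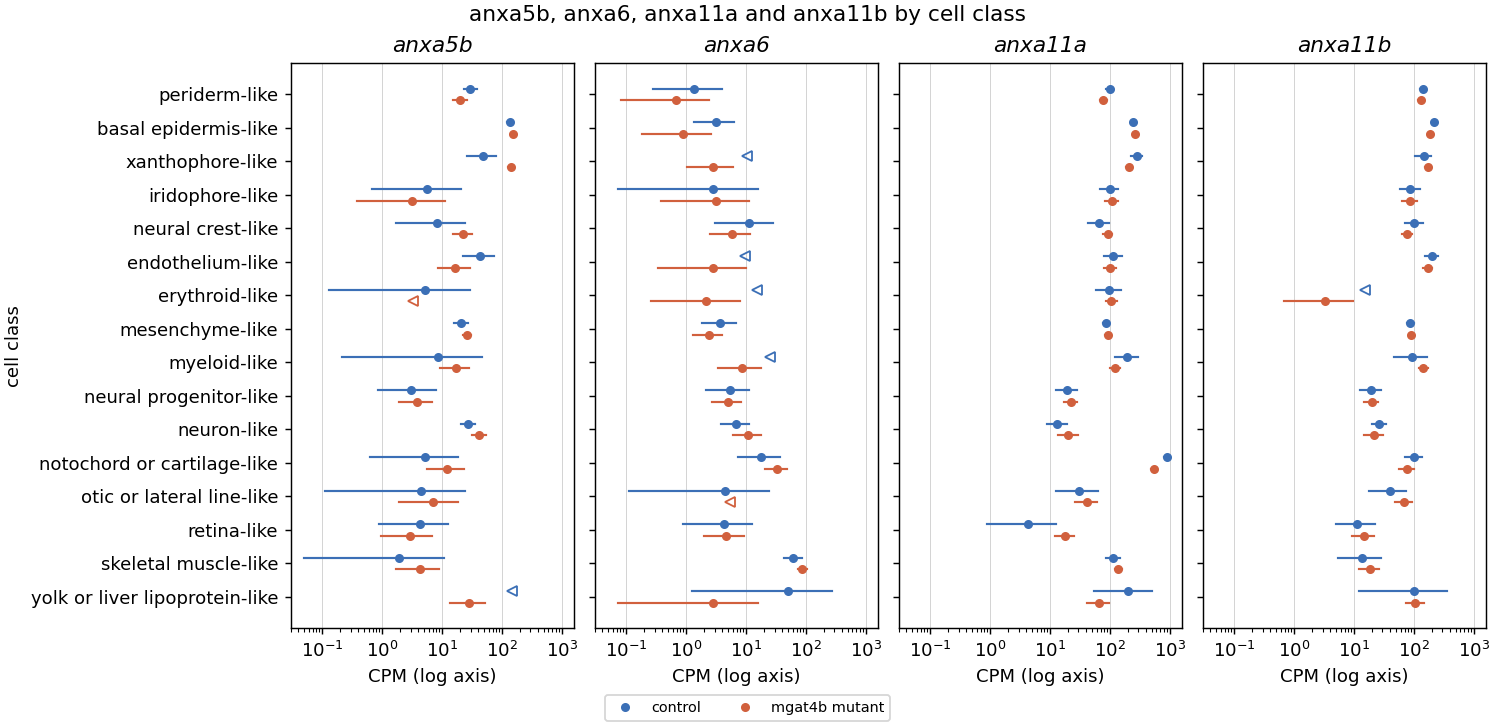
Points give the CPM (log axis) of *anxa5b*, *anxa6*, *anxa11a* and *anxa11b* in each of 16 cell classes, control in blue and mgat4b mutant in orange, with lines for the exact Poisson 95% intervals and open triangles for the level that 3 counts would give where a library had none. *anxa6* peaks in skeletal muscle-like cells (62.0 and 87.5 CPM), *anxa11a* in notochord or cartilage-like cells (890 and 537 CPM), and *anxa5b* of xanthophore-like cells differs between the libraries (47.7 and 144 CPM).

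Single periderm-like cells carried several annexins at once. Thinned to 836 UMIs, the median periderm-like cell had UMIs of 3 of the 10 genes in each library, the median basal epidermis-like cell had 1 in each, and the median neuron-like, iridophore-like and xanthophore-like cell had 0. At least 3 members were seen in 67.5% of control and 53.8% of mutant periderm-like cells, and in 10.6% and 13.9% of basal epidermis-like cells. Among cells thinned to 4919 UMIs instead, the medians for control and mutant were 6 and 5 in periderm-like, 4 and 3 in basal epidermis-like, 2 and 2 in xanthophore-like, 1 and 1 in iridophore-like and 0 and 0 in neuron-like cells. *anxa1c* made up 54.9% of the annexin UMIs of control periderm-like cells and 56.2% of those of the mutant, while in basal epidermis-like cells *anxa2a* (42.04% and 39.1%) and *anxa1a* (34.6% and 36.8%) shared the lead.

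Summed over all cells, the annexin A1 relatives and *anxa2a* were lower in the mutant library. The 10 genes together stood at 1739 CPM for the control and 1349 CPM for the mutant, a ratio of 0.776 (0.764 to 0.788). *anxa1a* stood at 417 and 301 CPM, *anxa1c* at 627 and 469 CPM and *anxa2a* at 325 and 231 CPM, with ratios of 0.721 (0.699 to 0.744), 0.748 (0.730 to 0.767) and 0.712 (0.688 to 0.738). *anxa1b* had 79.9 and 60.8 CPM, a ratio of 0.761 (0.710 to 0.817) that turned to 1.03 as a mean of per-cell CPM, and *anxa1d* had 43.1 and 34.4 CPM, a ratio of 0.798 (0.725 to 0.878). Such sums alone do not separate fewer cells of a type from less RNA per cell. Periderm-like and basal epidermis-like cells were 6.78% and 9.37% of control cells, and 7.98% and 11.7% of mutant cells. The low-depth clusters without a name count in these totals, with 599 cells (33.8%) in the control and 107 (2.77%) in the mutant. The cell shares alone thus cannot tell whether either skin class was more frequent among the remaining cells of the mutant. The skin classes had UMI shares of 12.7% and 14.8% for the control, and 9.69% and 11.2% for the mutant. Their median depths were 19276 and 11971.5 UMIs for the control, and 8935 and 5847 for the mutant. The part of each in the ratios was not tested.

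The other members did not share this. *anxa11a* stood at 110 and 114 CPM, a ratio of 1.03 (0.976 to 1.09), and *anxa11b* at 93.0 and 88.0 CPM, a ratio of 0.946 (0.889 to 1.01) that was 1.04 under TMM scaling. *anxa6* stood at 6.26 and 8.54 CPM, a ratio of 1.36 (1.08 to 1.72) that was 0.999 as a mean of per-cell CPM. *anxa5b* stood at 36.4 and 40.7 CPM, a ratio of 1.12 (1.01 to 1.23) that was 1.099 (0.997 to 1.21) without 1 cell and 0.943 as a mean of per-cell CPM. Of the 9 members with at least 50 UMIs 0 passed the size rule, which 4.09% of genes passed upward and 5.98% downward, and their median log2 ratio was -0.33, beside -0.15 over all 18119 genes. TMM scaling moved every log2 ratio of all cells by 0.14.

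Within the skin classes the sum and the annexin A1 and A2 genes with enough UMIs had ratios nearer to 1. Periderm-like cells held 12.7% of the UMIs of the control library and 9.69% of those of the mutant, with keratins at 22.5% of their UMIs in both. The 10 genes together stood at 8800 CPM in control and 8460 CPM in mutant periderm-like cells, a ratio of 0.961 (0.943 to 0.980) that turned to 1.02 under TMM scaling. *anxa1c* had a ratio of 0.983 (0.958 to 1.01), *anxa1b* 0.993 (0.924 to 1.07), *anxa1d* 1.03 (0.933 to 1.13) and *anxa2a* 0.951 (0.895 to 1.01). Under TMM scaling these were above 1 for *anxa1c* (1.04), *anxa1b* (1.05), *anxa1d* (1.09) and *anxa2a* (1.01). *anxa1a* was lower, at 0.907 (0.870 to 0.945), and 0.961 under TMM scaling. *anxa5b* had a ratio of 0.670 (0.463 to 0.968) from 65 and 59 UMIs, and *anxa11a* had 0.778 (0.644 to 0.941), which was 1.01 without 1 cell. Of 8 members 0 passed the size rule, beside 3.27% of genes upward and 4.84% downward in periderm-like cells.

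In basal epidermis-like cells the 10 genes together stood at 2678 CPM for the control and 2695 CPM for the mutant, a ratio of 1.01 (0.975 to 1.04). *anxa1a* had a ratio of 1.07 (1.01 to 1.13), *anxa5b* 1.16 (1.01 to 1.33), *anxa11b* 0.862 (0.768 to 0.968) and *anxa2a* 0.936 (0.891 to 0.984), the last being 0.979 (0.931 to 1.03) without its top cell. In both clusters of this class, taken singly, *anxa1a* and *anxa2a* had the higher value in the mutant library. The cluster led by *frem2a*, where both genes were low, held 46 of 166 control and 161 of 450 mutant cells. The class ratios thus mix level and cluster make-up, and the part of each was not tested. Of 6 members 0 passed the size rule, beside 2.31% of genes upward and 3.69% downward.

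When the mutant levels of each class were weighted by the control library's share of UMIs per class, the ratio of the sum was 0.955. That of *anxa1c* was 0.985, that of *anxa1b* 1.0005 and that of *anxa1d* 1.04. *anxa1a*, *anxa2a* and *anxa11b* were at 0.926, 0.907 and 0.902, *anxa11a* at 0.949, *anxa5b* at 1.13 and *anxa6* at 1.08. In the low-depth clusters without a name *anxa1a* stood at 672 CPM (357 UMIs) for the control and 342 CPM (48 UMIs) for the mutant. *anxa2a* stood at 604 CPM (321 UMIs) and 299 CPM (42 UMIs) there, with keratins at 5.44% and 1.72% of the UMIs. In 1 of these clusters the 2 mutant cells had a median of 12456 UMIs, so not all of the mutant UMIs came from shallow cells. The part of these clusters in the difference of *anxa1a* and *anxa2a* was not tested.

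**Figure D5:**
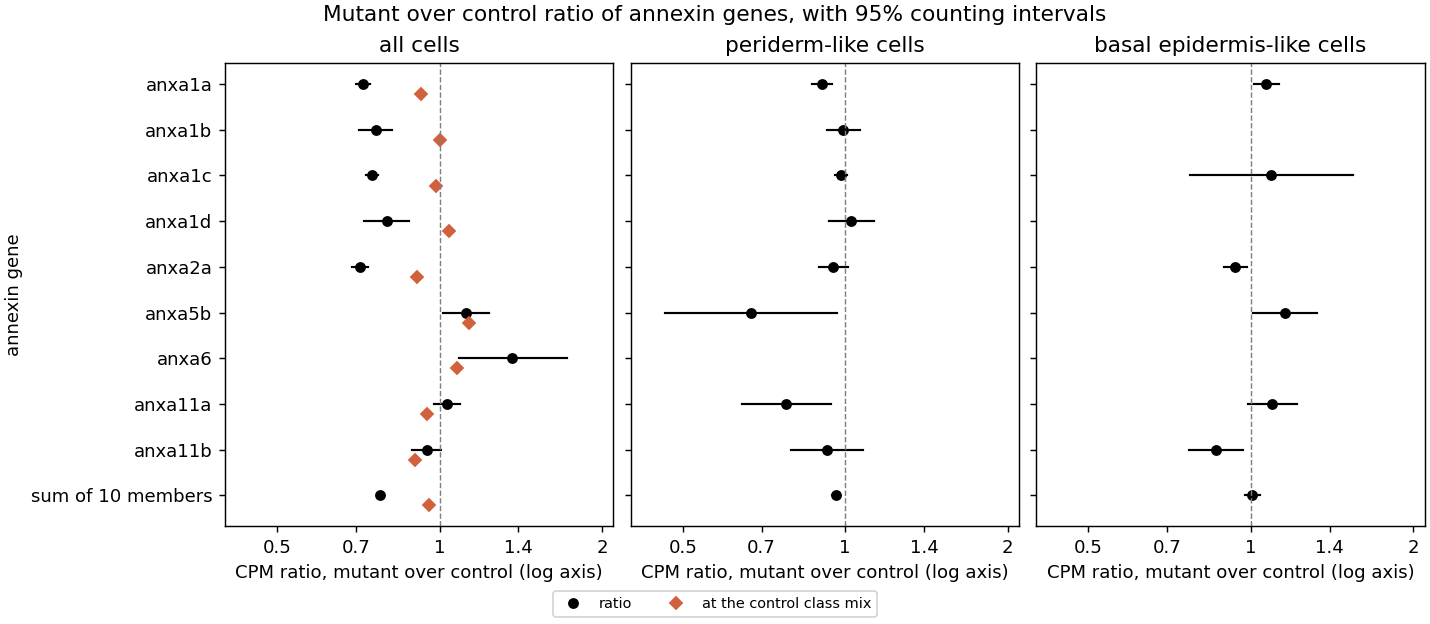
Points give the CPM ratio of mutant over control (log axis) of 9 annexin genes and of the sum of 10 in all cells, periderm-like cells and basal epidermis-like cells, with 95% counting intervals as lines and the ratio at the control class mix as diamonds; genes with under 50 UMIs in the cells are not drawn. The sum lies at 0.776 in all cells, 0.961 in periderm-like and 1.01 in basal epidermis-like cells.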

How the data were processed

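The authors deposited 1 matrix of UMI counts per library, made with Cell Ranger (7.2.0 per the file headers) on GRCz11, as whole numbers that are not normalized. The filter of the study was applied (over 200 genes detected, mitochondrial share below 5%). The 10 members and all gene and marker lists were chosen with earlier results of these data known. Integration used Seurat 5.3.0 under R 4.3.3 (1995 features after annexin genes were removed, 30 dimensions) and clustered on 13 dimensions at resolution 1. A cluster took the class with most markers among its top 50 genes (at least 3), and stayed unnamed where another class led its top 10 or where it was shallow and had no marker of its class among its leading genes; names were rebuilt, so classes may differ from those of the study. Doublets were kept: Scrublet (scanpy 1.11.5) called 1 control and 0 mutant doublets, which is a failed call, and an alternative left out the 27 and 127 highest scores.

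UMIs were summed per class and library and given as CPM with exact Poisson intervals. Ratios carry exact conditional binomial intervals and shares carry exact (Clopper-Pearson) ones. Where no UMI was found, 3 counts set the limit. Shares of cells were taken after thinning to 836 UMIs, the lower quartile of the control, which 1330 control and 3585 mutant cells reached. The size rule and intervals were run on simulated independent Poisson counts, the model that the intervals assume. That run checks the code and says nothing of UMIs clumped in single cells. Genes named were all members, *mgat4b*, other annexins and annexin partners with at least 200 UMIs, and the 3 genes most like each of the 3 members with most UMIs. Melanophore markers and leading genes of clusters were named in addition after their values were seen. TMM factors came from edgeR 4.0.16. No sequences or coordinates are given, since the tables used hold none for GRCz11.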

Additional observations from a re-analysis of the deposited data

Results flagged for a closer look

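*anxa1a* had a mutant over control ratio above 1 in some classes and below 1 in others, with intervals that left out 1: it was 1.07 in basal epidermis-like and 1.69 in neuron-like cells, but 0.907 in periderm-like, 0.607 in xanthophore-like and 0.562 in endothelium-like cells. Without the cell with most *anxa1a* UMIs the endothelium-like ratio was 1.07 (0.595 to 2.03) and the neuron-like one 1.54 (0.931 to 2.54), while the xanthophore-like one was 0.530 (0.357 to 0.809) and turned to 1.17 with cells assigned from their own markers. *anxa5b* likewise had ratios of 1.16 in basal epidermis-like, 1.52 in neuron-like and 3.02 in xanthophore-like cells, against 0.670 in periderm-like cells. Without its top cell the neuron-like ratio was 1.02 (0.666 to 1.54). The differences between classes were not tested, since each group has 1 library.

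Barcodes that failed the cell filter, 152 for the control and 260 for the mutant, still held annexin UMIs: the 10 genes together stood at 962 CPM (870 to 1061) and 1259 CPM (1170 to 1353) there, where 3 counts would give 7.25 and 5.12 CPM.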

How the results depend on the processing

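No paired analysis was possible because each group has 1 library, and no replicate could be left out. The ratio of the summed annexins in all cells, 0.776, was 0.755 with mutant cells drawn down to the control number, 0.856 under TMM scaling, 0.812 with totals without mitochondrial and ribosomal protein genes and 0.744 as a mean of per-cell CPM. It was 0.944 without skin classes and 0.955 at the control class mix, both chosen after the data had been seen. The skin share of annexin UMIs, 87.3% for the control and 83.1% for the mutant, was 86.4% and 81.7% without integration, 71.7% and 61.6% with cells assigned from their own markers, 89.3% and 83.5% among cells of at least 1000 UMIs and, for the mutant, 82.0% drawn down. The summed ratio in periderm-like cells, 0.961, was 0.934 at resolution 0.5, 0.991 with cells assigned from their markers, 0.922 drawn down, 0.892 as a mean of per-cell CPM and, turned in direction, 1.02 under TMM scaling. In basal epidermis-like cells, 1.01, it was 0.963 at resolution 0.5, 1.104 without integration, 1.05 under TMM scaling, 1.05 without mitochondrial and ribosomal protein genes and 1.07 as a mean of per-cell CPM. The count of 0 members past the size rule in all cells was 0 under each alternative run.

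Single genes whose interval left out 1 and whose ratio turned in direction were, in all cells, *anxa1b* (1.03 as a mean of per-cell CPM, 1.0005 at the control mix), *anxa1d* (1.54 without skin classes, 1.04 at the control mix), *anxa5b* (0.943) and *anxa6* (0.999), the last pair as means of per-cell CPM. In classes they were *anxa11a* in periderm-like cells (1.01 as a mean of per-cell CPM and 1.01 without 1 cell), *anxa2a* in basal epidermis-like cells (1.03 without integration), *anxa1a* in xanthophore-like cells (1.17 with cells assigned from their markers) and *anxa5b* in neuron-like cells (0.981 as a mean of per-cell CPM, 0.204 with cells assigned from their markers). Ratios whose interval held 1 also crossed it under some alternatives, among them TMM scaling for *anxa11b* in all cells (1.04) and for *anxa1b* (1.05), *anxa1c* (1.04) and *anxa2a* (1.01) in periderm-like cells. The causes were not tested. Depth limited *anxa2b* everywhere, and *anxa1a* in iridophore-like cells rests on 7 UMIs per library.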

Other observations

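The annexins outside the set of 10 added further class patterns. Of 6, 5 had at least 200 UMIs. *anxa3a* had its highest level in periderm-like cells, at 353 CPM for the control and 319 CPM for the mutant, followed by basal epidermis-like cells at 80.9 and 90.6 CPM. *anxa3b* was highest in myeloid-like cells, at 838 CPM from 10 control cells and 466 CPM from 56 mutant cells. *anxa13* was highest in endothelium-like cells, at 160 and 134 CPM, and *anxa13l* in xanthophore-like cells, at 54.5 and 80.3 CPM. Of the 6, 0 passed the size rule in all cells, beside 4.09% of genes upward and 5.98% downward, and their median log2 ratio was 0.28.

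Of 18 genes listed as annexin partners with at least 200 UMIs, 8 were highest in periderm-like and 2 in basal epidermis-like cells, with both libraries summed. Of all 13430 genes with that many UMIs, 10.3% were highest in either class. The 8 were all S100 genes or S100 relatives, and whether they bind an annexin was not tested. They include *s100a11*, taken up below, and *s100z*, which had 47.8% of its periderm-like UMIs in 1 mutant cell. *icn* and *icn2*, which encode calcium-binding S100 relatives, reached 25568 and 17288 CPM in control and 26155 and 19157 CPM in mutant periderm-like cells. *ahnak*, a giant scaffold protein that binds the annexin A2 complex in mammals, stood at 2739 CPM in control and 2201 CPM in mutant basal epidermis-like cells. *s100a11* stood at 732 and 472 CPM in periderm-like cells, but 1589 of the 1592 control UMIs there were in 1 cell, so the control value is not a level of the class. The ratio in all cells was 0.563 (0.526 to 0.602) with that cell. Without it the ratio was 8.13 (6.75 to 9.89), which would be past the size rule upward. Of the 19 partner genes with at least 50 UMIs, 2 passed the size rule upward in all cells and 0 downward, beside 4.09% and 5.98% of all genes: *dysf* with a ratio of 2.06 (1.81 to 2.35), which was 1.97 (1.73 to 2.25) without its top cell and so short of the rule, and *s100s* with 2.54 (1.49 to 4.59) from 17 and 77 UMIs (2.01 without its top cell), the latter named after its values were seen.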
